A study of Mus musculus with 4 samples.

Results

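The enzymes that attach ubiquitin to proteins and remove it again were followed in mouse CA1 hippocampus over the hours after foot shock. They were taken by gene symbol: every probe set whose only symbol began with Uba, Ube or Usp and a digit, with Uchl, with Cul and a digit, or with Fbx, Nedd4 or Nedd8. This gave 111 of the 12488 probe sets on the array and 79 of 8251 genes. The rule itself reads symbols only. Another 3 probe sets carried a matching symbol together with others and were left out.

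CA1 is a region of the hippocampus whose pyramidal neurons are needed for contextual memory. Young male C57BL/6J mice, unmodified as far as the labels say, were placed in the chamber 2 h before training and then received 3 shocks of 0.5 mA, each lasting 1 s and given after 2 min in the context. CA1 total RNA came from 4 times after the final shock, 1, 2, 4 and 6 h, each read on 1 Affymetrix MG-U74Av2 array. All 4 samples belong to a group labelled as shock alone, whose mice stayed in the chamber for 1 h after the shocks. The number of animals in each is not given in the labels, and unshocked mice were not analysed here. Each value is therefore set against the other times. With single arrays there is no replicate check and no p-value, and precision is limited by their number.

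Ubiquitin is a small protein joined to others by a relay of enzymes. An activating enzyme loads it, a conjugating enzyme carries it, and a ligase passes it to a chosen substrate, which chains of ubiquitin can send to the proteasome. Cullin ligases take their substrates through adaptors such as the F-box proteins and are switched on when the related protein Nedd8 is joined to the cullin. Proteases of the Usp and Uch families take ubiquitin off. In hippocampal neurons this turnover acts on synaptic proteins, and it is studied for its part in memory.

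Intensities are linear values as deposited, brought by a scaling factor within 1.001 of 1 to the same trimmed mean on each array. A floor of 100.8, the 40th percentile of all values, was set as the level under which values were not ranked. Each transcript is read by a probe set, several short oligonucleotides whose brightness depends on how well they bind, so members are compared with themselves over time and not with each other. In bulk tissue, fewer cells of a type and less RNA per cell cannot be told apart.

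Of the 111 probe sets, 75 (67.6%) lay above the floor on all 4 arrays, against 51.9% of all probe sets. Another 15 were above it on some arrays and 21 on none. The 75 stood for 61 genes. The mean intensity over the arrays had a median of 766 units among the 75 and of 537 among all probe sets above the floor.

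**Figure D1:**
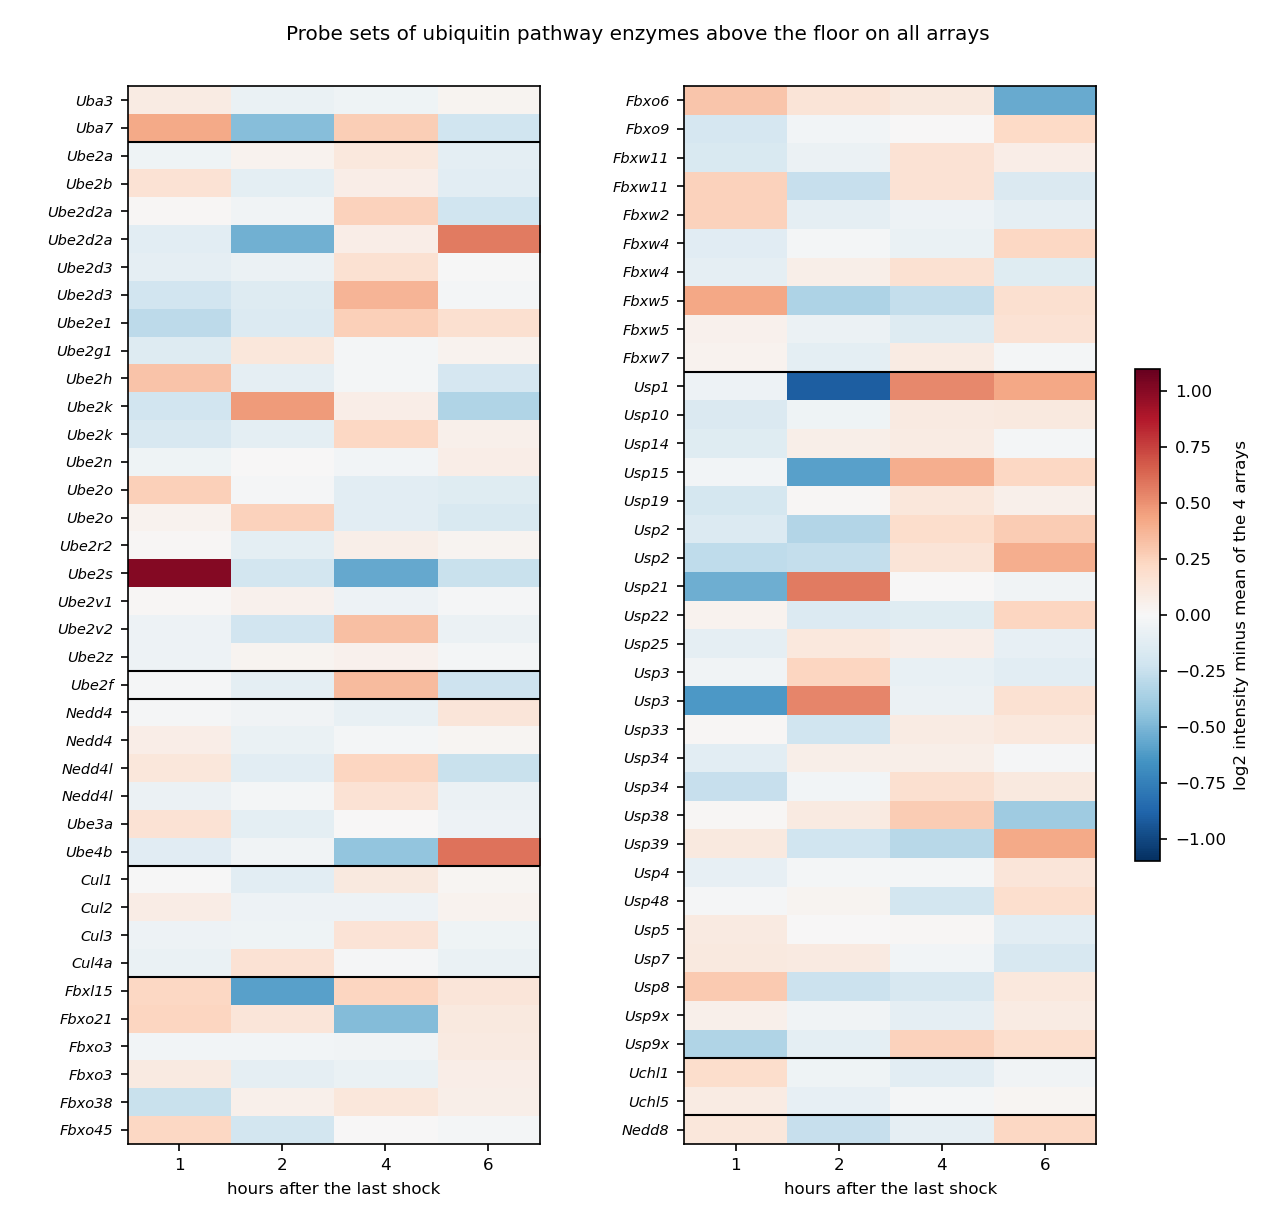
Log2 intensity of the 75 member probe sets above the floor on all 4 arrays, each minus its own mean over the arrays, at 1, 2, 4 and 6 h. Rows are ordered by role, lines separate the roles, and a gene with several probe sets has its brighter one first. The strongest colours are Ube2s at 1 h and Usp1 at 2 h.

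Control ratios and cell type markers differed between the arrays. For actin, the 3' control probe set over the 5' one gave 1.84, 2.70, 1.79 and 1.74 at 1, 2, 4 and 6 h, and for Gapdh 3.98, 4.82, 3.85 and 3.24, both highest at 2 h. The 18S ratio was highest at 6 h, at 4.88. For pyruvate carboxylase the ratio was 5.69, 3.04, 3.34 and 11.1, lowest at 2 h and highest at 6 h, where its 5' value of 42.8 was under the floor. The 5' values of the transferrin receptor control were under the floor on all arrays. Of 6 choroid plexus and ependymal markers on the array, 5 had a mean above the floor, and the summed intensity of all 6 was 1969, 1606, 2183 and 7969, highest at 6 h, where transthyretin (Ttr) read 4482 against 110.5, 89.9 and 198. At 6 h 4 of the 5 were above the other times, and Foxj1, an ependymal marker, was not, at 296, 294, 275 and 244. The CA1 markers were present, with 7 of 8 on average above the floor and Neurod6 at 648 to 1263, although Camk2a was below the floor on 3 of 4 arrays. Oligodendrocyte markers summed to 27185, 27497, 28969 and 30011, and at 6 h 7 of 9 were above the other times. The 2 below included Mal, at 1880, 2017, 2138 and 1218, which was 1.5-fold or more below the other times at 6 h. Astrocyte markers summed to 24567, 24942, 22208 and 22582, with 8 of 10 below at 6 h, and endothelial and mural markers to 2063, 1609, 1828 and 1439, with 7 of 9 below at 6 h. Microglial markers summed to between 9757 and 10570.

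Across the members the differences between times were small. The highest array was at least 1.5-fold above the lowest for 17 of 75 (22.7%), against 27.9% of all probe sets above the floor, and at least 2-fold above it for 6 (8%), against 6.33%. At mean intensities of at least 500 the share was 7 of 51 members, against 12.4% of all. The median ratio of highest to lowest array was 1.28 for members and 1.32 for all probe sets. Without the 2 h array 11 of 76 members had a span of 1.5-fold, and the share of all probe sets was not computed there. The shares on all arrays lie near the background, so as a set the members varied about as much as the rest of the array.

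Probe sets were said to stand apart at a time if that array exceeded the next highest, or undercut the next lowest, by 1.5-fold or more. This held for 5 members (6.67%) against 6.3% of all probe sets. They were Ube2s, higher at 1 h (background 0.574%), Fbxl15 and Usp1, lower at 2 h (1.12%), Ube4b, higher at 6 h (0.326%), and Fbxo6, lower at 6 h (1.16%). None was apart at 4 h (0.202% of all probe sets higher, 1.01% lower), lower at 1 h (0.931%) or higher at 2 h (1.18%). Just short of the limit were Fbxo21, 1.496-fold below the other arrays at 4 h, Usp21, 1.48-fold above them at 2 h, Usp15, 1.48-fold below at 2 h, and the dimmer probe set of Usp3, 1.47-fold below at 1 h. Usp3 and Usp15 passed the limit under both quantile normalization and scaling to a common median. Scaling to a common median also added Usp21, as lower at 1 h, and lost Fbxo6. Without the 1, 2, 4 or 6 h array, 8 of 76, 3 of 76, 11 of 75 and 8 of 77 members stood apart on the other 3. Shares of all probe sets on 3 arrays were not computed.

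**Figure D2:**
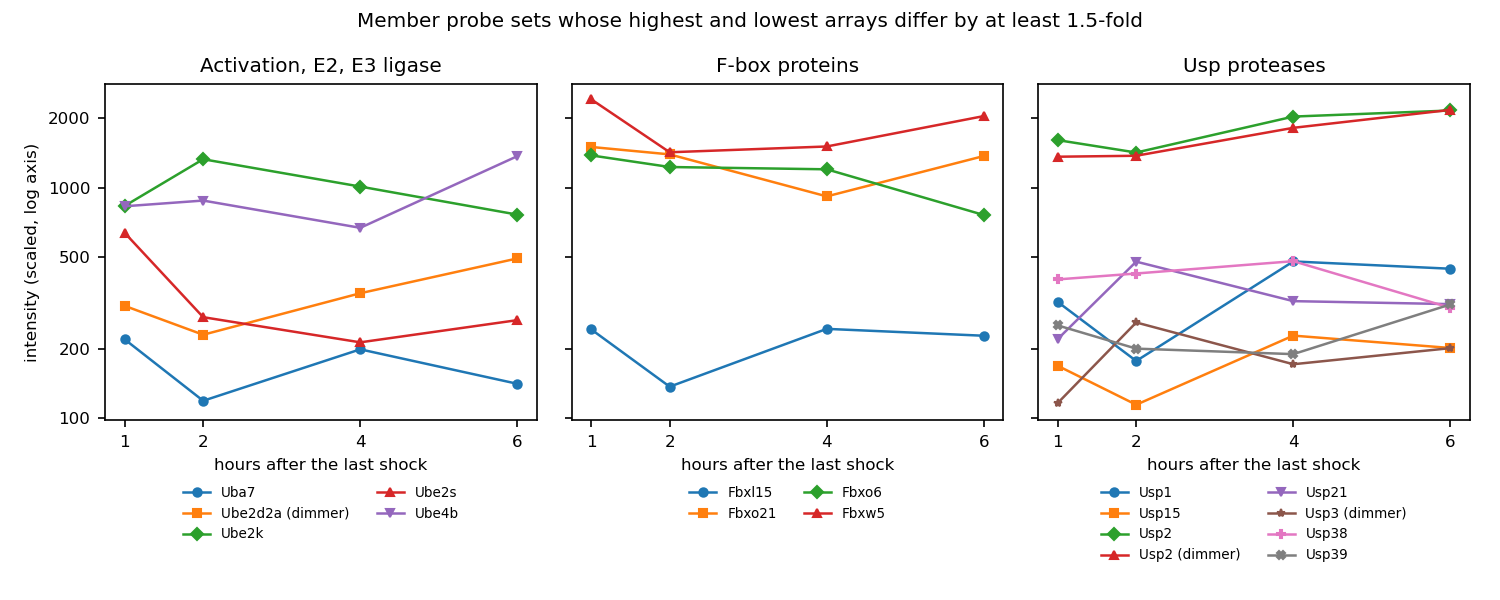
Intensity (log axis) at 1, 2, 4 and 6 h of the 17 member probe sets whose highest array was at least 1.5-fold above the lowest, in 3 panels by role, with the second probe set of a gene marked as dimmer. Ube2s reads 636 at 1 h and 274 at 2 h, Ube4b ends highest at 1368, and both lines of Usp2 lie higher at 4 and 6 h than at 1 and 2 h.

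Promoter sequence is shown for Usp2, whose 2 probe sets were both highest at 6 h, and for Ube2s and Ube4b, the members higher at a single time. The 250 bases before the RefSeq start site of each, read 5′ to 3′ from RefSeq on build GRCm38.p6, are shown with capitals for the GC box (GGGCGG), the TATA box (TATAAA) and the CCAAT box on either strand. They lie at chr9:44084670-44084919 (plus strand) for Usp2, chr7:4812341-4812590 (minus strand) for Ube2s and chr4:149426632-149426881 (minus strand) for Ube4b.
Usp2: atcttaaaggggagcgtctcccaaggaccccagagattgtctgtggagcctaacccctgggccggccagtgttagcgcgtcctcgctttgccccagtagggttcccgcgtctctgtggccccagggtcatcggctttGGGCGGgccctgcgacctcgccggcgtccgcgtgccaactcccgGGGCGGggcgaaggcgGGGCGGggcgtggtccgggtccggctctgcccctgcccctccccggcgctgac
Ube2s: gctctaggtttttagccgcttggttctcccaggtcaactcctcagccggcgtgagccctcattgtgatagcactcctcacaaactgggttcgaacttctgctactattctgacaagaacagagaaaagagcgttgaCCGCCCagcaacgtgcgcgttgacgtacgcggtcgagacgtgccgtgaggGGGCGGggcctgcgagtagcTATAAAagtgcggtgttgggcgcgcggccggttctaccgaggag
Ube4b: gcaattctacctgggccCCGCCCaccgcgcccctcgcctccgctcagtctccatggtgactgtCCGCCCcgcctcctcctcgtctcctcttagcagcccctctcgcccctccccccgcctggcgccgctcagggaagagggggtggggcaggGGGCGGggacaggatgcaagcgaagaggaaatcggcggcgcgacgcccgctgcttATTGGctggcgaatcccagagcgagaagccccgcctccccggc
Usp2 had 3 GC boxes and no TATA or CCAAT box in this window, Ube2s 2 GC boxes and a TATA box, and Ube4b 3 GC boxes and a CCAAT box. No E-box (CACGTG) or cyclic AMP response element (TGACGTCA) lay in these windows. RefSeq promoters were found for 57 of the 79 genes, 74 in all. A GC box was in 64.9% of them, in 52.8% of the promoters of all genes on the array and in 32.7% of all promoters of this length. The others were in 5.41% (TATA box), 20.3% (CCAAT), 4.05% (E-box) and 1.35% (cyclic AMP response element) of member promoters, against 12.4%, 33.8%, 6.02% and 1.55% of all. For these the share in promoters of genes on the array was not computed. The median GC content was 62.8% for members, 58.8% for genes on the array and 52.4% for all. A match is a string of letters in the window and not a site of binding.

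Activating enzymes came first in the relay. Uba3, the catalytic subunit of the enzyme that activates Nedd8, read 658, 586, 597 and 629 intensity units at 1, 2, 4 and 6 h. It was nearly flat, with a ratio of highest to lowest of 1.12. Uba7, which activates the interferon-induced protein ISG15, read 219.9, 119, 199 and 141, higher at 1 h and 4 h than at 2 h and 6 h, a span of 1.85-fold at a dim level. Uba1y, the Y-linked copy of the ubiquitin-activating enzyme, was below the floor on all 4 arrays with both of its probe sets. These 3 genes were all the activating enzymes among the members, so the activation of ubiquitin itself was not read above the floor.

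Conjugating enzymes of ubiquitin numbered 27 probe sets of 19 genes, of which 19 probe sets lay above the floor throughout. Ube2v1, a catalytically inactive partner of Ube2n in chain building, was the brightest, at 3707, 3814, 3553 and 3659, highest at 2 h and lowest at 4 h. Ube2n itself read 1632, 1697, 1655 and 1782, and Ube2r2, which works with cullin ligases, 3300.4, 3043, 3409.8 and 3338. Ube2z, a conjugating enzyme with an activating enzyme of its own, read 729.9, 772, 780.0 and 746. These 4 had spans of at most 1.12.

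Ube2s differed most between times. It extends ubiquitin chains for the anaphase-promoting complex, a ligase of dividing cells that also acts in neurons, and read 636, 274, 213 and 266. It was high at 1 h and low on the other 3 arrays, 2.32-fold above the next highest. A single probe set carries it. Ube2c, which starts the chains that Ube2s extends, did not share this course. It read 69.7, 167, 98.7 and 168, below the floor at 1 h and 4 h.

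The Ube2d and Ube2e enzymes, which serve many ligases, were highest at 4 h with most of their probe sets. Ube2d3 read 1799.7, 1838, 2154 and 1918, and its dimmer probe set 684, 718, 1023 and 781. The dimmer one, like the probe sets used here for Ube2e1 and for the dimmer reading of Ube2d2a, is of a type that can also read related transcripts. So are the brighter probe sets of Nedd4l and Ube2o and the dimmer ones of Nedd4 and Fbxw4. The brightest probe sets of Nedd4, Fbxw5, Nedd8 and Usp3 are of another type, which several transcripts can share. Both probe sets of Ube2d3 had the same order of times, highest at 4 h and lowest at 1 h, the dimmer with a span of 1.49 and the brighter of 1.2. Ube2e1, at 509, 559.6, 743 and 700.0, was likewise highest at 4 h, with its lowest value at 1 h. Ube2d2a read 1271, 1226, 1500.1 and 1082, highest at 4 h, but its dimmer probe set read 307, 230.2, 348 and 493, highest at 6 h. Ube2e3, a dim member, read 120.4, 99, 142 and 166, highest at 6 h and below the floor at 2 h.

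Of the 19 probe sets, 9 (47.4%) were highest at 4 h, against 23.1% of all probe sets. The share was 47.4% after scaling to a common median and 42.1% after quantile normalization, against 28.1% and 24.3%. Further members highest at 4 h included Ube2a, a Rad6 homologue, at 999, 1062, 1118 and 959, and Ube2v2, a second partner of Ube2n, at 284, 255, 372 and 282. Counted by gene, 10 of 17 exceeded their mean over the other 3 times at 4 h (49.2% of all genes did), with a median log2 difference of 0.08 against 0.00 for all genes. The count of genes above lies near the background. The count of probe sets highest at 4 h is over probe sets that include several for 1 gene, and its difference from the background was not tested.

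Other conjugating enzymes were highest early. Ube2b, the second Rad6 homologue, read 2741, 2274, 2577 and 2267, and Ube2h read 802, 601, 634 and 568, with a second probe set at 200.1, 190.1, 90 and 66.2, above the floor at 1 h and 2 h only. Both probe sets of Ube2h were highest at 1 h. Ube2o, a large enzyme that also acts as a ligase, read 2189, 1818, 1688 and 1669.9 and, with its second probe set, 1579, 1836, 1421 and 1370.4. Both were lowest at 6 h, but the first was highest at 1 h and the second at 2 h, and the third probe set was below the floor throughout. Ube2k, which builds chains on its own, read 832, 1327, 1009.7 and 763 with a probe set highest at 2 h and 392, 409.7, 519 and 459.5 with another highest at 4 h, so its time of highest level depended on the probe set. Ube2g1, an enzyme of the endoplasmic reticulum pathway, read 1318, 1588, 1428 and 1490.3, highest at 2 h by a small margin.

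The remaining conjugating enzymes were dim. Ube2w read 51.6, 134, 119 and 74.8, above the floor at 2 h and 4 h. The second probe sets of Ube2v2 and Ube2z passed it at a single time each, at 103.3 and 146.5, and Ube2t stayed below it. For the enzymes of ubiquitin-like proteins, Ube2f, which carries Nedd8, read 179.9, 168, 232 and 155, highest at 4 h. Ube2l6, which carries ISG15, read 131, 39.6, 64.7 and 30.7, above the floor at 1 h only, at least 1.30-fold above the other times. Uba7 was likewise highest at 1 h, while Usp18, which removes ISG15, was below the floor throughout.

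Ligases of the HECT and U-box types were 4 genes with 6 probe sets, all above the floor. Ube4b, a U-box enzyme that lengthens existing chains, read 829.5, 878, 669 and 1368. It was high at 6 h and lowest at 4 h, 1.56-fold above the next highest array. A single probe set carries it, and the 6 h array was the one with Ttr at 4482. The part of tissue content in this value was not tested.

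The HECT ligases had spans of at most 1.39. Nedd4, a ligase for membrane proteins, read 1924, 1896, 1839.8 and 2130.3 with its brighter probe set and 280.3, 253, 263 and 271 with the dimmer, which had different orders of times within spans of 1.16 and 1.11. Nedd4l, which regulates ion channels, read 1327, 1124, 1431 and 1029 and, with its second probe set, 623, 643, 728 and 623. Both were highest at 4 h and lowest at 6 h, although 1 h and 6 h were within 1 unit of each other in the second. Ube3a, the ligase lost in Angelman syndrome, read 405, 335, 362 and 349, highest at 1 h.

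Cullins, the scaffolds of the largest ligase family, had spans of 1.1 to 1.18 for the 4 above the floor, with a median of 1.16 against 1.32 for all probe sets. Cul1, the scaffold for F-box proteins, read 1580.1, 1469, 1708 and 1608. Cul3, which takes BTB proteins as adaptors, read 1041, 1051, 1203 and 1051, and both were highest at 4 h. Cul2 read 968, 879, 877 and 938 and Cul4a 906, 1065, 944 and 906, highest at 1 h and 2 h. Cul7 was below the floor on all arrays. Nedd8 itself, the switch of these ligases, read 1419, 1092, 1214 and 1528, lowest at 2 h and highest at 6 h, a span of 1.40. Its second probe set, below the floor, read 83.7, 73.4, 95 and 98.4.

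F-box proteins, the substrate adaptors of Cul1 ligases, were 24 probe sets of 16 genes, 16 of them above the floor on all arrays. None of the 16 was highest at 2 h, where 28.7% of all probe sets were, and this held under scaling to a common median and quantile normalization. At 2 h 7 were lowest (43.8%, against 26.7%), and at 1 h 7 were highest (43.8%, against 24.8%). The 16 probe sets stand for 12 genes, so several genes are counted more than once. Counted by gene, 8 of 13 with a mean above the floor exceeded their other times at 1 h, and 4 of 13 did at 2 h. Of all genes 52.4% did so at either time. At 2 h actin's 3' to 5' ratio was 2.70, and the part of RNA integrity in these counts was not tested.

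Fbxo6, an adaptor that recognises glycoproteins, read 1378, 1227, 1199.6 and 760.2, lower at each later time and 1.58-fold below the next lowest at 6 h. Its second probe set read 45.4, 138, 104 and 54.6, above the floor at 2 h and 4 h only, so it did not bear out the order. Fbxl15 read 243, 137, 244 and 228, lower at 2 h than on the other 3 arrays by 1.66-fold, with the other 3 values close together. Fbxo21 read 1499, 1392, 916 and 1369.7, lowest at 4 h. Both are carried by 1 probe set.

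Fbxw5, which had the brightest F-box probe set, read 2413, 1422, 1506 and 2040.3, high at 1 h and 6 h and low at 2 h and 4 h, a span of 1.70. Its second probe set, at 654, 605, 574 and 706, was also higher at 1 h and 6 h than at 2 h and 4 h, with a span of 1.23. Fbxw7, which marks cyclin E, Myc and Notch for degradation, read 1833, 1659, 1909 and 1762 with a span of 1.15. Fbxw11, the adaptor that takes IkB and beta-catenin to the ligase, read 949, 1023, 1197 and 1124 and 315, 222, 294 and 236, with the brighter probe set highest at 4 h and the dimmer at 1 h.

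Fbxo45, found at synapses, read 889.7, 662, 762 and 751, highest at 1 h and lowest at 2 h, and Fbxw2 1088, 853, 880.3 and 854, also highest at 1 h. Fbxo9 went the other way, at 886, 985, 1009.8 and 1175, higher at each later time. Fbxo38 read 433, 536, 559 and 539, lowest at 1 h. The pairs of Fbxo3, at 499.7, 499.8, 498 and 545 and 468, 406, 415 and 459.5, and of Fbxw4, at 584, 627, 605 and 748 and 228, 257, 276 and 224, did not share a time of highest or lowest value. Fbxo8, at 131, 143, 119 and 70.9, was under the floor at 6 h, and the iron sensor Fbxl5, at 71.5, 99, 115 and 40.3, was above it at 4 h only. Fbxl12, Fbxo15, another 2 probe sets of Fbxo3 and 1 of Fbxw5 were below it throughout.

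Usp proteases were the largest class, with 39 probe sets of 27 genes, 24 of them above the floor on all arrays. Of the 24, 11 were lowest at 1 h (45.8%, against 22.8% of all probe sets), and 9 were highest at 6 h (37.5%, against 23.5%) and 8 at 4 h (33.3%, against 23.1%). The share lowest at 1 h was 45.8% under scaling to a common median and quantile normalization as well, against 26.4% and 24.7%. The share highest at 6 h was 37.5% against 32.9% under the first and 33.3% against 24.3% under the second. At 4 h the shares were 37.5% against 28.1% and 33.3% against 24.3%. These counts are over probe sets that include several for 1 gene, and their differences from the background were not tested. Counted by gene, 8 of 20 exceeded their other times at 1 h (52.4% of all genes did), with a median log2 difference of −0.05. By gene the median log2 difference from the other times was 0.13 at 6 h, with 12 of 20 above, against −0.01 for all genes, of which 48.9% were above. After scaling to a common median it was 0.21, with 0.06 for all genes. On the 6 h array Ttr read 4482 and 7 of 9 oligodendrocyte markers were above the other times, and the part of tissue content in this difference was not tested.

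Usp2, a protease with a daily rhythm in many tissues, was higher late with both of its probe sets, which read the same RNA. The brighter probe set read 1605, 1418, 2030.2 and 2157 and the dimmer 1360.1, 1373, 1814 and 2170.5. In both the values at 4 h and 6 h lay above those at 1 h and 2 h, and 6 h was highest. The level at 6 h was 1.34-fold that at 1 h with the first and 1.6-fold with the second, which was higher at each later time. The hour of day of each sample is not in the labels, and the 6 h array had Ttr at 4482. At 4 h the levels were 1.26-fold and 1.33-fold those at 1 h. The choroid plexus marker Kl read 177, 179, 378 and 508, higher at 4 h and 6 h as well. Of 5 choroid plexus and ependymal markers with a mean above the floor, 1 exceeded its other times at 4 h. At 6 h 4 did. The part of tissue content in the Usp2 values was not tested.

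Usp1, which acts on the DNA repair proteins PCNA and FANCD2, read 319.5, 177, 478 and 445. It was low at 2 h, 1.80-fold below the next lowest array, and highest at 4 h. Usp15, a partner of the COP9 signalosome, read 169, 114, 228 and 202, also lowest at 2 h, but its second probe set read 127, 298, 138 and 79.8, highest at 2 h. Usp1 rests on 1 probe set and Usp15 on 2 that disagree.

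Higher at 2 h was Usp21, a protease of histone H2A, at 220.4, 477, 322 and 312, lowest at 1 h. Usp3, another protease of histone H2A, read 898, 1089, 871 and 849.5 with its brightest probe set and 116, 260.2, 172 and 201 with the next, both highest at 2 h. The third probe set, at 109.6, 26.4, 93.4 and 142, was below the floor at 2 h and 4 h, so it did not share that time. Usp38 read 399.8, 424, 479.6 and 301, lowest at 6 h, with a second probe set above the floor at 1 h only, at 107, and Usp39, a splicing factor of this family, 253, 200.4, 189.7 and 312, highest at 6 h.

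**Figure D3:**
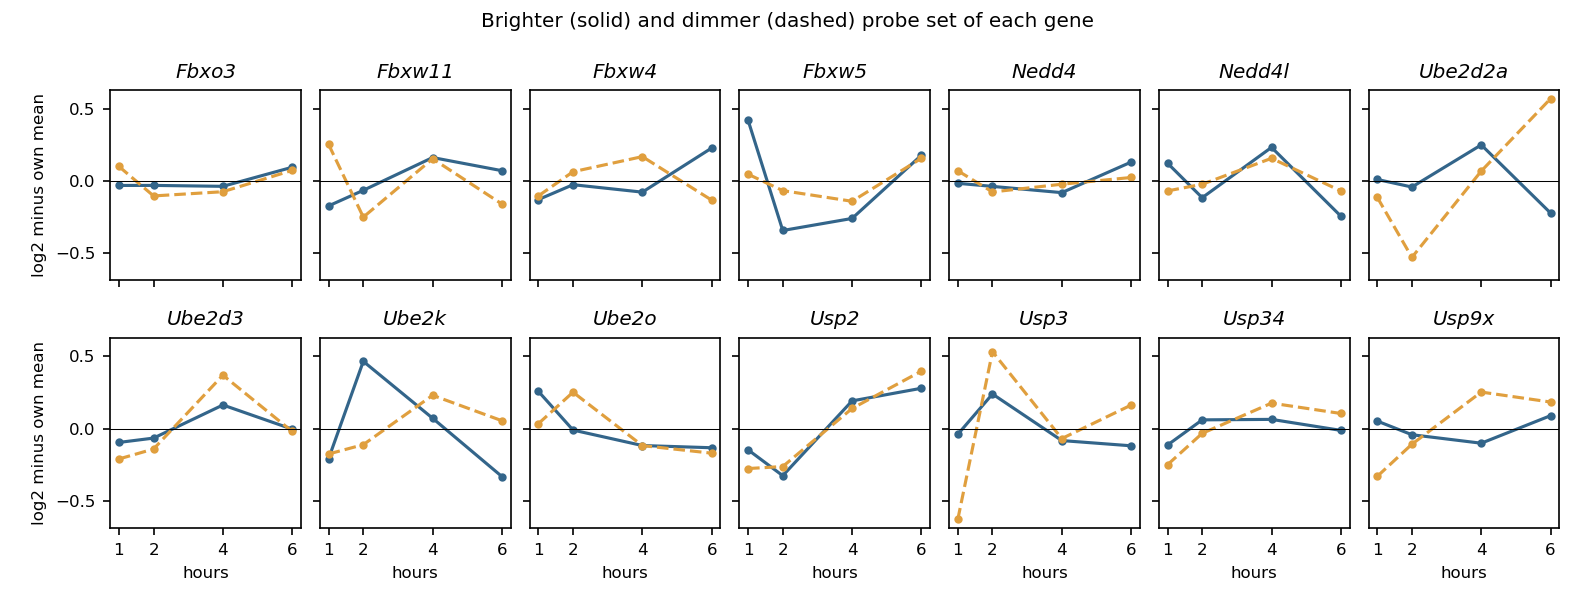
Log2 intensity minus its own mean over the arrays, at 1, 2, 4 and 6 h, for the brighter (solid) and dimmer (dashed) probe set of the 14 member genes with at least 2 above the floor on all arrays. The lines run together for Usp2, Usp34, Nedd4l and Ube2d3 and apart for Ube2d2a and Ube2k.

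Usp34, a very large protease, read 1691, 1908, 1913 and 1815 and 348, 405, 468 and 446, and both probe sets were highest at 4 h and lowest at 1 h. Usp9x, which protects many substrates in neurons, read 2447, 2292, 2200.3 and 2511, nearly flat, and 236, 275, 353 and 336 with its dimmer probe set, lowest at 1 h. Usp8, a protease of endosomal receptors, read 717, 496, 519 and 636, high at 1 h and 6 h. Usp7, which acts on p53 and Mdm2, read 1418, 1417, 1292 and 1169, lower at each later time, and its second probe set, at 87.3, 215, 129 and 128, was highest at 2 h.

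Usp14, a protease bound to the proteasome, read 559.9, 643, 652 and 604, and Uchl5, bound there too, 469.6, 413, 432 and 446. Usp5, which takes apart free chains, read 1288, 1209, 1217 and 1111. Their spans were 1.16, 1.14 and 1.16. Uchl1, one of the most abundant proteins of neurons, had the brightest probe set of all members, at 7040.5, 5961, 5681 and 5973, highest at 1 h with a span of 1.24.

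The other Usp members above the floor throughout were Usp4, Usp10, Usp19, Usp22, Usp25, Usp33 and Usp48, with spans of 1.16 to 1.31. Usp4, at 866, 906, 907 and 1009, and Usp10, at 439, 476, 524 and 529, were higher at each later time. Usp24 was above the floor at 4 h only, at 124, and Usp12, Usp17la, Usp17lc, Usp29 and Usp42 were below it throughout, as were further probe sets of Usp4, Usp14, Usp19 and Usp39.

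One-way courses were few. Fbxo9, Usp4, Usp10 and the dimmer probe set of Usp2 were higher at each later time, 4 of 75 (5.33%) against 3.9% of all probe sets. Fbxo6, Usp7 and a probe set of Ube2o were lower at each later time, 3 of 75 (4%) against 4.86%. Of the 14 genes with at least 2 probe sets above the floor, 5 had the same time of highest value in both and 4 the same time of lowest value, near the 31.9% and 29.8% of 725 genes on the array. Nedd4l, Ube2d3 and Usp34 shared both.

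**Figure D4:**
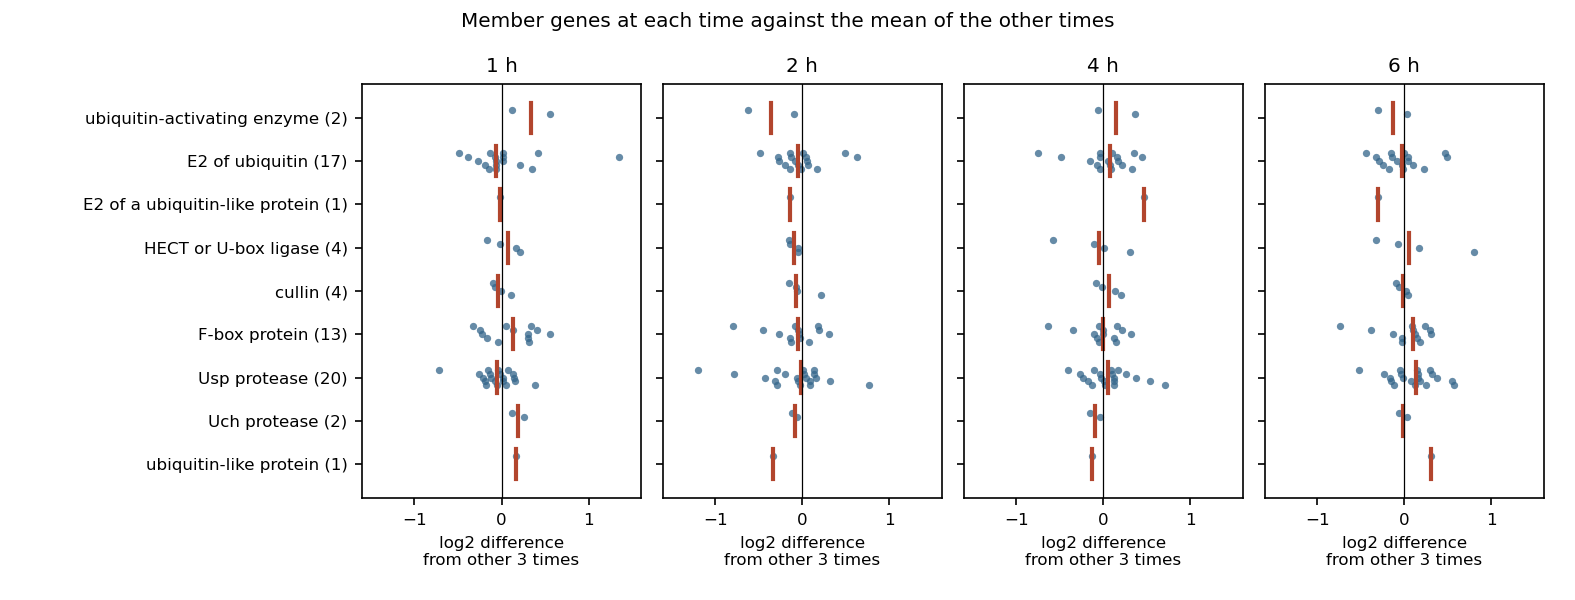
Log2 intensity at each time minus the mean of the other 3 times, for the 64 member genes with a mean above the floor, by role with the number of genes in brackets. Points are genes, shown by their brightest probe set with values under the floor set to it, and red bars are medians. The row of activating enzymes holds Uba3 and Uba7, which activate Nedd8 and ISG15. The medians of the larger classes lie within 0.14 of 0 at each time.

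Over all roles, 64 genes had a mean above the floor. Their median log2 difference from the other times was −0.01, −0.06, 0.00 and 0.03 at 1, 2, 4 and 6 h, against 0.01, 0.02, 0.00 and −0.01 for all genes. At 2 h 22 were above the other times and 42 below, where 52.4% of all genes were above. The counts above were 31 at 1 h (52.4% of all genes), 35 at 4 h (49.2%) and 33 at 6 h (48.9%).

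By time of the highest value, 9 of 75 member probe sets (12%) were highest at 2 h, against 28.7% of all probe sets, and 27 (36%) were highest at 4 h, against 23.1%. At 1 h the count was 21 (28%, against 24.8%) and at 6 h 18 (24%, against 23.5%). The share at 2 h was 8% against 18.9% after scaling to a common median and 14.7% against 27.6% after quantile normalization. The shares at 4 h were 37.3% against 28.1% and 34.7% against 24.3%. For the lowest value the shares were 32% at 1 h (against 22.8%), 30.7% at 2 h (26.7%), 16% at 4 h (24.3%), and 21.3% were lowest at 6 h (26.2%). The array at 2 h was the one with the actin ratio of 2.70. CA1 pyramidal markers summed to 8690, 8679, 9652 and 9169 at 1, 2, 4 and 6 h, but at 4 h 3 of 7 were above the other times and 4 below. Markers of CA3 and dentate granule cells summed to 3600, 3188, 3837 and 2858, with 3 of 4 above at 4 h. Markers of striatum, neocortex or thalamus summed to 4639, 4979, 3758 and 4061, with 6 of 7 above at 2 h and 5 of 7 below at 4 h. These shares count probe sets, which include several for 1 gene. The part of RNA quality and tissue content in these shares was not tested.

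**Figure D5:**
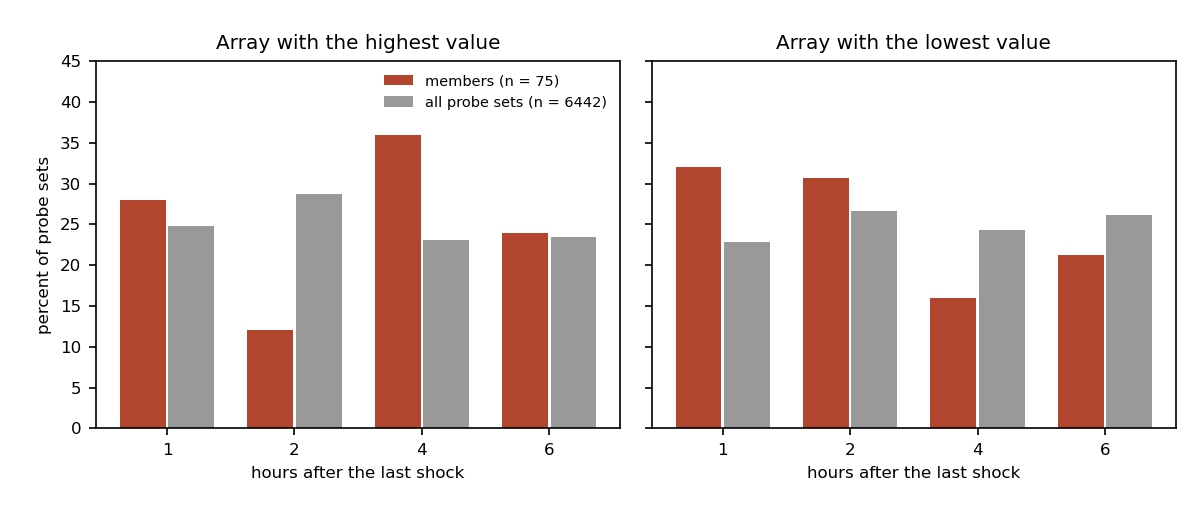
Percent of probe sets above the floor whose highest value (left) or lowest value (right) was on the array at 1, 2, 4 or 6 h, for the 75 members (red) and all 6442 probe sets (grey). The share highest at 2 h is 12% for members and 28.7% for all, and at 4 h 36% and 23.1%.

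Genes that act with the members were taken from lists. In the 20S core of the proteasome, 11 of 16 genes exceeded their other times at 4 h and the median log2 difference was 0.12, and in its 19S and 11S regulators 18 of 21 did, also with 0.12, where 49.2% of all genes were above. None of these stood apart by 1.5-fold, and 1 of 15 and 3 of 21 had a span of 1.5-fold. Those with the largest spans were the core subunit Psma1, at 559, 346, 534 and 488, lowest at 2 h, and the regulatory ATPase Psmc6, at 2755, 4128, 3950.5 and 4192, lowest at 1 h. Scaling to a common median gave medians of 0.17 for the core and 0.17 for the regulators, against 0.04 for all genes. The part of RNA quality and tissue content in these counts and medians was not tested.

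The partners of cullins had a median of 0.13 at 4 h, with 7 of 10 genes above their other times, where 49.2% of all genes were. The COP9 signalosome, which removes Nedd8 from cullins, had 0.09 with 7 of 9 above. After scaling to a common median the values were 0.18 and 0.14, against 0.04 for all genes. The part of tissue content and RNA quality in these differences was not tested. Btrc, an adaptor of the Fbxw11 kind, read 371, 557, 456 and 545, and the signalosome subunit Cops7a 1972, 1326, 1662 and 1491. Ligases outside the symbols used here had a median of −0.02 at 4 h and ubiquitin and its relatives 0.04. Among these ligases Arih1 read 528, 391, 478 and 724, highest at 6 h, and Siah2 261, 469.5, 284 and 354, highest at 2 h. Atg12, the ubiquitin-like protein of autophagy, read 1652, 1115, 1290.4 and 1280.4, highest at 1 h.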

How the data were processed

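Linear intensity values per probe set were used as the authors deposited them. With 2% of values cut from both ends, every array had a mean of 500.3. How the scans were summarised is not given in the sources used here. Names came from GEO's annotation of the platform, in which 10833 probe sets had 1 symbol, 396 several and 1193 none, besides 66 controls. The gene identifiers of all 111 members were in RefSeq's table, and 0 symbols changed. The members and the gene lists were chosen with earlier results of these data known.

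Arrays were scaled to a common trimmed mean over probe sets other than controls. Values below 100.8, the 40th percentile, were treated as bounds. The brightest probe set stood for a gene in log2 medians, and values at each time were set against the mean of the other 3. Any member could be named. Values on all arrays were given, in each role, for the 2 brightest, those with the largest spans, those apart at a time and those with further probe sets above the floor, and for up to 2 genes of a partner list by span. Values of other members, Foxj1, Kl and Camk2a were added after they were seen. With 1 array per time no test was run. The steps were tested on simulated arrays. Python 3.11.15, NumPy 2.4.6, pandas 2.3.3, SciPy 1.17.1 and matplotlib 3.10.9 were used.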

Additional observations from a re-analysis of the deposited data

How the results depend on the processing

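No paired analysis was possible because each time has 1 array. The count of members apart by 1.5-fold, 5 as reported, was 12 with the floor at the 20th percentile, 2 with it at the 60th, 1 at a limit of 2-fold and 2 at a mean intensity of at least 500, an alternative added after the data were seen. With single arrays left out it ranged from 3 to 11. Without the 1, 2, 4 or 6 h array it was 8, 3, 11 and 8. The count with a span of 1.5-fold, 17 as reported, was 30, 8, 6 and 7 under the same 4 settings and ranged from 11 to 16 with single arrays left out, lowest without the 2 h array. One-way courses, 7 as reported, ranged from 25 to 32 over 3 times, where such an order is easier to reach. Scaling to a common median, which lowered 2 h relative to 6 h by 0.117 on the log2 scale, moved the median of the members from −0.06 to −0.14 at 2 h and from 0.03 to 0.10 at 6 h. With single arrays left out the medians ranged from −0.03 to 0.03 at 1 h, from −0.07 to −0.06 at 2 h, from −0.01 to 0.04 at 4 h and from 0.00 to 0.02 at 6 h. The spread used to judge a median was its approximate 95% half-width over members, 0.054 to 0.069, which is not a spread between replicates. The values as deposited and plain probe sets alone kept the medians within that spread and the counts within 1.5 times. Means over the probe sets of a gene or over members, run for the medians only, kept them within it too. Weak signal limits the 36 probe sets not above the floor on all arrays. Their values under the floor are bounds, for which a level or an order cannot be given.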

Other observations

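Among proteases of ubiquitin outside the Usp and Uch families, the OTU protease Otud4 read 472, 774, 762 and 1382, 2.93-fold from lowest to highest. It was 1.5-fold or more above the other times at 6 h and 1.5-fold or more below them at 1 h. Its probe set, like those of Otud5 and Otud7b in the same list, is of the type that can also read related transcripts. The Josephin protease Josd2 read 197, 233, 140.1 and 296, also highest at 6 h. The list of these proteases had a median log2 difference of 0.41 at 6 h, from 6 genes of which 5 were above the other times, where 48.9% of all genes were above. It was 0.48 after scaling to a common median, where all genes had 0.06. On the 6 h array Ttr read 4482 and 7 of 9 oligodendrocyte markers were above the other times, and the part of tissue content in these values was not tested.

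The anaphase-promoting complex, for which Ube2s and Ube2c make chains, had a median of 0.14 at 2 h, with 7 of 10 genes above the other times against 52.4% of all genes. The median was 0.06 after scaling to a common median, where all genes had −0.07. The 3' to 5' ratios of actin, 2.70, and Gapdh, 4.82, were highest at 2 h, while that of pyruvate carboxylase was lowest there. The part of RNA quality in this difference was not tested. Its activator Cdc20 read 198, 341, 137 and 171, high at 2 h and low on the other 3 arrays, while Ube2s was high at 1 h. The scaffold subunit Cdc16 read 762, 1004, 801 and 730.5, also highest at 2 h. Among SUMO enzymes the ligase Pias3 read 211, 121, 169 and 279.9, and among ubiquitin receptors Tollip read 518, 942, 586 and 841, high at 2 h and 6 h. The SUMO enzymes had a median of −0.07 at 4 h and the receptors one of −0.05.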
